A study of Mus musculus with 35 samples.

Results

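Tanycytes are elongated glial cells whose bodies line the floor and lower walls of the ventricle inside the hypothalamus. Their processes reach the blood vessels and neurons of the arcuate nucleus and median eminence, where they sense nutrients and control the supply of thyroid hormone. They keep features of the radial glia of the embryo, and some act as neural stem cells in the adult. The genes described here are 8 that mark these cells: Rax, Lhx2, Vim, Nes, Gpr50, Scn7a, Crym and Cd59a. They were picked by name from the 49568 gene names in the count tables, and all 8 passed the filter on low counts that left 18063 genes to test. Several of them are also made by other cells. Vimentin and nestin are found in blood vessels and other glia, and Crym, Lhx2 and Cd59a in neurons or in many cell types. The tissue was bulk hypothalamus, so fewer tanycytes and less RNA per tanycyte cannot be told apart.

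Messenger RNA was measured in 35 hypothalamus samples from male B6/J mice killed at Zeitgeber time (ZT) 16, in the dark phase, each taken as 1 mouse. The controls were 10 mice with free access to food and 10 mice that went without food for 16 h. Mice with the genotype PER2-S662D, a serine-to-aspartate form of the clock protein PER2, made up a fed group of 5 and a fasted group of 5. The 5 mice with the genotype label Per2 ko were all fasted. The labels name neither the knockout allele nor the way the S662D form was introduced, and they do not say whether the control mice were littermates.

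Total counts per library ran from 17959586 to 37027342. Library numbers in the file headers form separate ranges for control replicates 1 to 5, control replicates 6 to 10, the labelled knockout and the S662D mice, so for both mutants the genotype and the library range cannot be told apart. A further 6 of the 10 S662D libraries (replicates 2, 3 and 4 of both feeding states) carry an additional final digit, whose meaning the headers do not give. Summed counts of 10 choroid plexus genes had medians of 35.8 to 64.2 CPM (counts scaled to library size) in the 5 groups but reached 1590 CPM in 1 fasted control. Per2 itself stood at 30.3 ± 2.00 CPM (SD, n = 5) in the libraries labelled Per2 knockout and at 29.0 ± 2.45 CPM (SD, n = 10) in controls without food. The gene-level count thus does not separate these libraries from controls, and they are called by their label below. In S662D mice it was 18.7 ± 1.98 CPM fed and 19.9 ± 2.38 CPM fasted (SD, n = 5 each).

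The members lie on 5 chromosomes. In the mm10 coordinates of the count tables, Cd59a (chromosome 2, 104095801 to 104115354, plus strand), Vim (chromosome 2, 13573927 to 13582826, plus), Lhx2 (chromosome 2, 38339281 to 38369733, plus) and Scn7a (chromosome 2, 66673425 to 66784914, minus) share chromosome 2. Nes lies on chromosome 3 (87971078 to 87980451, plus), Crym on chromosome 7 (120186380 to 120202111, minus), Rax on chromosome 18 (65934639 to 65939089, minus) and Gpr50 on chromosome X (71663667 to 71669257, plus). Over all 35 libraries and per kilobase of exon, Cd59a had the highest level, at 12.9 ± 1.95 CPM per kb (SD over libraries). Vim followed at 7.07 ± 0.828, Lhx2 at 3.33 ± 0.507, Gpr50 at 2.36 ± 0.417, Scn7a at 1.70 ± 0.253, Nes at 1.58 ± 0.447, Crym at 0.817 ± 0.410 and Rax at 0.579 ± 0.167 CPM per kb. Rax, a homeobox factor, was also the most thinly measured, with 8 to 48 counts in a library. In the annotation used for counting, 818 of its 1669 exon bases (49.01%) overlap the antisense gene Raxos1, and the counting command names no strand option, so reads there cannot be assigned to either gene. The level of Rax per kilobase was taken over all 1669 bases and may be too low, so its place below Crym is uncertain. The other 7 members overlap no other gene's exons. Of the 50-base stretches of Cd59a, however, 3.87% are shared with other genes, and reads that map to several places were counted.

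**Figure D1:**
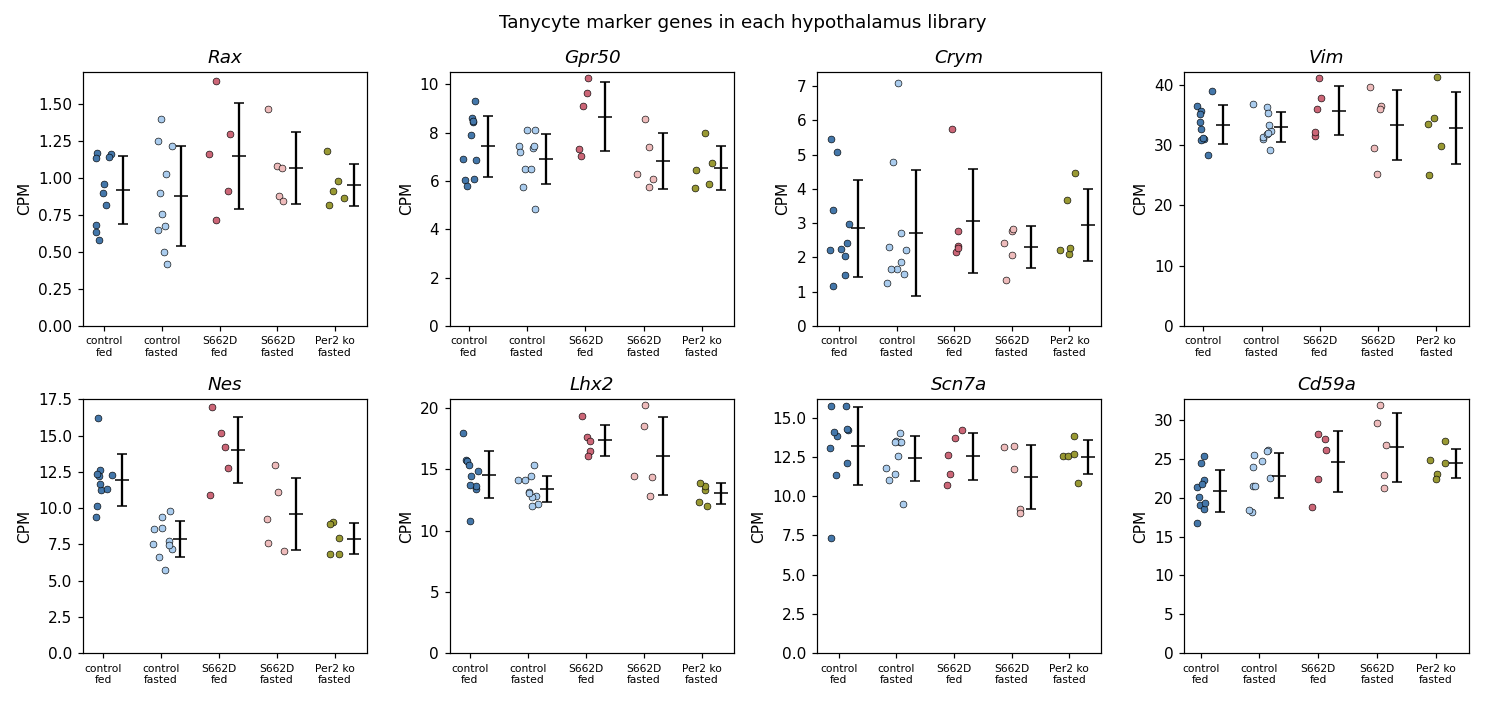
Level of each of the 8 marker genes in CPM (vertical axis, from 0) in every library of the 5 groups (horizontal axis), with 1 point per mouse and the group's mean ± SD as the bar beside the points. Nes is lower in the fasted than in the fed groups, with group means of 7.86 and 11.9 CPM in controls, while for the other genes except Lhx2 the points of the groups intermingle. Lhx2 in fed S662D mice (16.1 to 19.4 CPM) lies above all fasted controls (up to 15.3 CPM) and all labelled knockout libraries (up to 13.9 CPM).

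Nes was the only member that passed the test on fasting. Nestin is an intermediate filament protein of neural stem cells, of the tanycytes and of dividing blood vessel cells. In the fed controls its level was between 9.39 and 16.2 CPM with a median of 11.9, and in the fasted controls between 5.74 and 9.79 CPM with a median of 7.61. Of the 10 fasted controls, 8 lay below every fed control, and the ranges overlapped only between 9.39 and 9.79 CPM. This is a level 0.659 times that of fed mice, that is, -0.60 ± 0.104 (SE) on the log2 scale, and its adjusted p was 0.000127 (edgeR quasi-likelihood test, Benjamini-Hochberg over all genes tested). Across all genes 3.88% were called, which means an adjusted p below 0.05, in this comparison.

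In S662D mice the Nes values were 10.9, 15.2, 17.0, 14.2 and 12.8 CPM when fed and 11.1, 9.24, 7.58, 12.9 and 7.02 CPM when fasted. The fasted mice were lower on average, 3 of 5 lay below every fed mouse, and the other 2 fell within the fed range. On the log2 scale fasted minus fed was -0.56 ± 0.139 (SE), and the adjusted p was 0.0158 (edgeR), where 2.64% of all genes were called. Of all called genes in this comparison, 68.5% were higher on fasting, and 44.4% when libraries were scaled by size alone. The Nes change itself was -0.59 with that scaling.

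A difference between the Nes responses of the 2 genotypes was not detected. It was 0.04 on the log2 scale, with a 95% confidence interval of -0.31 to 0.39 and an adjusted p of 0.976 (edgeR). No member was called for this difference, none had an unadjusted p below 0.05, and DESeq2 called none. Across all genes 0% were called, with 1151 at an unadjusted p below 0.05 and 0 by DESeq2.

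The control result stood in both sets of control libraries, at -0.56 (adjusted p = 0.0254, edgeR) in replicates 1 to 5 and -0.64 (adjusted p = 0.0228) in replicates 6 to 10. The S662D call depended on single libraries. Its adjusted p rose to 0.0596 without fed replicate 2, 0.0734 without fed replicate 3, 0.0700 without fasted replicate 3 and 0.0701 without fasted replicate 5, with changes of -0.52, -0.49, -0.49 and -0.46. In the 4 S662D libraries without the additional digit the change was -0.39 (adjusted p = 0.999), and in the 6 with it -0.64 (adjusted p = 0.0164).

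The sequence before the start of Nes is shown because Nes was the member that changed, and beside it those of Hes5, a neural stem cell gene that also fell on fasting, and Dio2, a tanycyte gene that rose. They are RefSeq promoter windows of the build GRCm38.p6, read 5′ to 3′ on the gene's strand and ended before any exon of the gene in the count tables. Capitals mark GTGGGAA (or TTCCCAC on the other strand), the core bound by the Notch effector RBPJ, and TGACGTCA, the cAMP response element.
Nes, chr3:87970843-87971077, plus strand: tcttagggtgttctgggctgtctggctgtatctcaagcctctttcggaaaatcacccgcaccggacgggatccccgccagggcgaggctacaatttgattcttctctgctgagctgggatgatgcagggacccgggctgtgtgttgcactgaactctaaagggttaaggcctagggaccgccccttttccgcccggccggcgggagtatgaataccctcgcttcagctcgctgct
Hes5, chr4:154960673-154960922, plus strand: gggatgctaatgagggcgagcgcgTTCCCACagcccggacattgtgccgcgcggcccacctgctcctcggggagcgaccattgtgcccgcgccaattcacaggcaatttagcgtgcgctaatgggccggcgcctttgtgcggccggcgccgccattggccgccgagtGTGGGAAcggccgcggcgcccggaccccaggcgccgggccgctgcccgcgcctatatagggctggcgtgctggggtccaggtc
Dio2, chr12:90739039-90739288, minus strand: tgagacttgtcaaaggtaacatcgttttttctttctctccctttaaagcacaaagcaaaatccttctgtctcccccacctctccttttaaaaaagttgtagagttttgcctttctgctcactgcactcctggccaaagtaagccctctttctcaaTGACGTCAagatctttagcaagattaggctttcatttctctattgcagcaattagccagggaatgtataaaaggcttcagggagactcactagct

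The Hes5 window holds the RBPJ core in both orientations, the Dio2 window holds 1 cAMP response element, and the Nes window holds neither. The E-box CACGTG, which the clock proteins CLOCK and BMAL1 bind, was in none of the 3 windows. The window of Sox2, which also fell on fasting, was searched too, and 0 matches to each motif were found. Both strands were searched. Among all 32851 RefSeq promoter windows, 6.38% hold GTGGGAA, 1.79% hold TGACGTCA and 7.15% hold CACGTG. The motifs were chosen after the promoters were read, so the matches in Hes5 and Dio2 cannot be tested against these shares. Of the members, 6 of 8 matched the table, with 7 windows (Gpr50, Vim, Nes, Scn7a and Cd59a with 1 and Lhx2 with 2), and none of the 3 motifs was found in them. Rax and Crym were not in the table.

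Vim encodes vimentin, the main intermediate filament protein of tanycyte processes and the partner with which nestin assembles. It did not pass the test on fasting. Fed controls ranged from 28.3 to 39.0 CPM (median 33.3) and fasted controls from 29.2 to 36.8 CPM (median 32.2), so that every fasted value lay inside the fed range. The log2 fold change was -0.02 with a 95% confidence interval of -0.17 to 0.13, the narrowest interval but one among the members, and an adjusted p of 0.968 (edgeR). In S662D mice Vim was 31.5, 41.2, 36.0, 32.1 and 37.9 CPM fed and 29.5, 36.5, 35.9, 39.6 and 25.2 CPM fasted, a change of -0.11 (interval -0.32 to 0.10, adjusted p = 0.698). The interval in controls does not reach the change of -0.60 of Nes.

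Rax and Lhx2 are homeobox transcription factors that specify tanycytes, and Lhx2 acts upstream of Rax in the developing hypothalamus. Rax ranged from 0.583 to 1.17 CPM in fed and from 0.421 to 1.40 CPM in fasted controls, with the fasted mice both above and below the fed range. Its log2 fold change of -0.06 had an interval of -0.46 to 0.34 and did not pass. In S662D mice Rax was 1.16, 1.30, 1.66, 0.717 and 0.914 CPM fed and 0.881, 1.08, 0.847, 1.46 and 1.07 CPM fasted, and every fasted value lay within the fed range. Lhx2 changed by -0.12 in controls (interval -0.27 to 0.03, adjusted p = 0.518) and by -0.12 in S662D mice (interval -0.31 to 0.08, adjusted p = 0.642) on fasting, which did not pass the test.

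Gpr50 encodes an orphan receptor related to the melatonin receptors and is strongly expressed by tanycytes in rodents. In fed controls it lay between 5.79 and 9.29 CPM and in fasted controls between 4.84 and 8.12 CPM, with a change of -0.11 (interval -0.31 to 0.09, adjusted p = 0.750). In S662D mice it was 7.03, 9.63, 9.11, 10.2 and 7.32 CPM fed and 6.30, 7.42, 5.75, 8.55 and 6.08 CPM fasted. There, 3 of the 5 fasted mice were below every fed mouse. The log2 fold change of -0.36 ± 0.133 (SE) had an unadjusted p of 0.00963 and an adjusted p of 0.163, and it was called under none of 19 alternatives. The 2 responses were not shown to differ, with a difference of -0.25 (interval -0.59 to 0.08, adjusted p = 0.820).

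Scn7a encodes the sodium-sensing channel NaX of glia in the sensory organs around the ventricles. It ranged from 7.37 to 15.8 CPM in fed controls and from 9.54 to 14.0 CPM in fasted controls, with all fasted mice inside the fed range, and changed by -0.09 (interval -0.28 to 0.10, adjusted p = 0.800). Cd59a encodes a membrane protein that blocks the last step of complement attack. It was the only member with a positive change in both genotypes, 0.13 in controls (interval -0.04 to 0.30, adjusted p = 0.569) and 0.10 in S662D mice (interval -0.13 to 0.33, adjusted p = 0.746), and neither passed the test. Crym encodes mu-crystallin, which binds thyroid hormone inside cells. It changed by -0.07 in controls (interval -0.69 to 0.56) and -0.45 in S662D mice (interval -1.29 to 0.39), the widest intervals among the members.

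**Figure D2:**
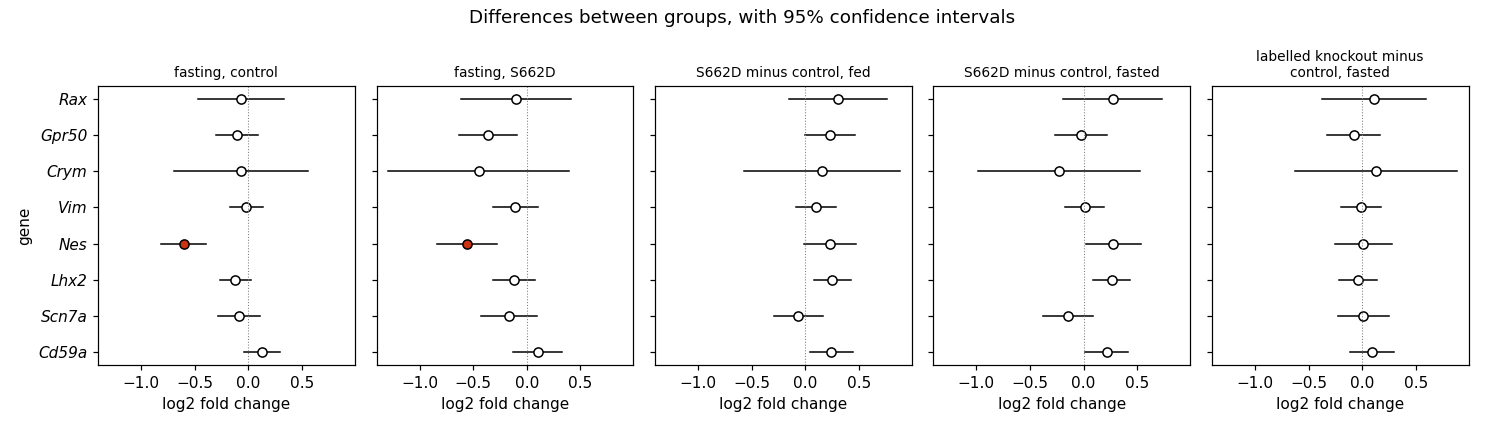
Log2 fold change (horizontal axis) of each marker gene (vertical axis) in 5 comparisons, with lines for 95% confidence intervals, filled points for an adjusted p below 0.05 and open points for the rest. Nes on fasting, at -0.60 in controls and -0.56 in S662D mice, has the only filled points, and the intervals of Crym and Rax are the widest.

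In a list of 22 other tanycyte genes, of which 20 were tested, 2 rose and 1 fell on fasting in controls, and 3 rose and 2 fell in S662D mice. Of all 18063 genes tested, 397 rose and 304 fell in controls, and 326 rose and 150 fell in S662D mice. This list and those below were chosen with earlier results of these data known. The medians over the tested genes of the list were -0.04 and -0.21 on the log2 scale, against 0.00 and 0.00 over all genes. The cells in which the genes of these lists changed cannot be told in bulk tissue. Dio2, the deiodinase with which tanycytes turn thyroxine into the active hormone, rose. Fed controls lay between 19.9 and 29.9 CPM (median 23.9) and fasted controls between 26.5 and 43.6 CPM (median 35.8), and 6 of 10 fasted mice were above every fed one. The rise was 0.50 ± 0.0925 (SE) on the log2 scale (adjusted p = 0.000530, edgeR). In S662D mice all 5 fasted values (26.9 to 45.5 CPM) exceeded all 5 fed ones (22.5 to 26.6 CPM), and the rise was 0.70 ± 0.127 (SE), with an adjusted p of 0.000722.

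Rgcc, a regulator of the cell cycle, rose in both genotypes, by 0.32 in controls (adjusted p = 0.0115) and by 0.50 in S662D mice (adjusted p = 0.00480). Adm, the peptide adrenomedullin, rose in S662D mice by 1.12 (adjusted p = 5.85e-05). Its change in controls was 0.28 and did not pass, and the 2 responses were not shown to differ (0.84, adjusted p = 0.762, edgeR). Sox2, a transcription factor of neural stem cells and of tanycytes, fell by 0.40 in controls and by 0.58 in S662D mice (adjusted p = 1.91e-09 and 1.03e-09), and in both genotypes every fasted mouse was below every fed mouse. Fabp7, the brain fatty acid binding protein of radial glia, fell by 0.59 in S662D mice (adjusted p = 0.000589) and changed by -0.20 in controls, which did not pass. Its 2 responses were not shown to differ either (-0.38, adjusted p = 0.762, edgeR). Of the 13 genes of thyroid hormone handling, 12 were tested. Dio2 and the hormone-induced genes Hr (1.24 in controls and 1.27 in S662D mice) and Klf9 (0.32 and 0.44) rose in both genotypes. None was called lower, and Crym and the hormone transporter Slco1c1 did not pass. The medians over the tested genes of this list were 0.00 in controls and -0.15 in S662D mice. Of all 18063 genes tested, 397 and 326 were called higher. The level of the hormone itself was not measured. Dio2 belongs to both lists. In the 4 S662D libraries without the additional digit, Dio2, Hr, Klf9, Adm and Rgcc lost their calls, with log2 fold changes of 0.48, 1.02, 0.40, 0.86 and 0.32 and adjusted p between 0.209 and 0.999 (edgeR). Fabp7 stood there at -0.35 (adjusted p = 0.966), and Sox2 kept its call at -0.56. In control replicates 6 to 10 alone, Dio2 (0.49, adjusted p = 0.0514), Rgcc (0.34, adjusted p = 0.106) and Klf9 (0.22, adjusted p = 0.138) lost their calls and Hr kept its own (1.05, adjusted p = 0.00777).

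Nes is also 1 of 12 genes in a list of neural stem cell and Notch pathway genes, which therefore is not independent of it. Of these, 7 fell and none rose on fasting in controls, with a median of -0.25, and 4 fell and none rose in S662D mice, with a median of -0.23. Of all 18063 genes tested, 304 fell in controls and 150 in S662D mice. The list was chosen with earlier results of these data known, so its counts are not a test of it. In controls the 4 genes of the list that fell most were Nes, Hes5 (-0.56 ± 0.141 SE, adjusted p = 0.0135), Sox2 and Id3 (-0.33, adjusted p = 0.00384). Sox9 (-0.32), Jag1 (-0.26) and Hey1 (-0.17) also fell. In S662D mice Nes, Sox2, Hes5 (-0.69, adjusted p = 0.0487) and Sox9 (-0.36, adjusted p = 0.00801) fell. Hes5 is a repressor that Notch signalling turns on in stem cells and astrocytes, Jag1 a Notch ligand, Hey1 another Notch target, Id3 an inhibitor of neuronal differentiation factors, and Sox9 a glial transcription factor. In control replicates 6 to 10 alone 3 of the 12 were called lower. In S662D mice 1 was called lower without fed replicate 2 and in the libraries without the additional digit, and 2 without fed replicate 3, fasted replicate 3 or fasted replicate 5. In the libraries without the digit the changes were -0.39 for Nes, -0.50 for Hes5 and -0.04 for Sox9, which were not called.

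Hes5 showed 1 library apart from its group. In fed controls it was between 8.39 and 14.9 CPM, and 9 of 10 fasted controls were lower than all of these (4.42 to 7.33 CPM). The remaining 1, replicate 7, had 15.2 CPM and exceeded every fed mouse. Without it the log2 fold change was -0.74 (adjusted p = 9.82e-07), and within control replicates 6 to 10, which include it, -0.26 (adjusted p = 0.503). Hes5 shares 31.8% of its exon bases with Gm20421 on the other strand, so its counts are uncertain in the same way as those of Rax. In S662D mice the Hes5 call was lost in 11 of 19 alternatives, with log2 fold changes between -0.85 and -0.50.

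Marker genes of other cells moved in the same comparison. Among 8 endothelial genes, Cldn5 (-0.43, adjusted p = 4.39e-05) and Tek (-0.42, adjusted p = 0.00250) were called lower and none higher in fasted controls. Of all genes, 3.88% were called there and 2.64% in S662D mice. In S662D mice Ly6c1 was called higher (0.40, adjusted p = 0.00311) and none lower. Cldn5 (-0.28, adjusted p = 0.116) and Tek (-0.32, adjusted p = 0.198) did not pass there, nor did Ly6c1 in controls (0.13, adjusted p = 0.305). The responses of the genotypes were not shown to differ for Cldn5, Tek or Ly6c1 (adjusted p = 0.832, 0.925 and 0.766, edgeR). The summed level of the 8 genes was 242 to 276 CPM in fed and 219 to 255 CPM in fasted controls, and 246 to 282 CPM in fed and 226 to 300 CPM in fasted S662D mice. None of the 8 was at 0. Among 10 astrocyte genes, Aldh1l1 (0.20) and Agt (0.25) rose and Aqp4 (-0.33) fell in controls, and the sums were 4502 to 4735 CPM fed and 4498 to 4820 CPM fasted. Of 12 ependymal genes 0 were called in either genotype by edgeR or DESeq2, and 0 in controls and 2 in S662D mice had an unadjusted p below 0.05. The mitochondrial share of counts, which can move with RNA quality, was 6.24 to 6.82% in fed and 6.846 to 8.27% in fasted S662D mice, with no overlap. In controls it was 6.88 to 7.36% fed and 7.27 to 8.70% fasted in replicates 1 to 5, and 6.69 to 7.37% fed and 6.81 to 7.29% fasted in replicates 6 to 10. The part of these cells and of the mitochondrial share in the results on fasting was not tested.

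**Figure D3:**
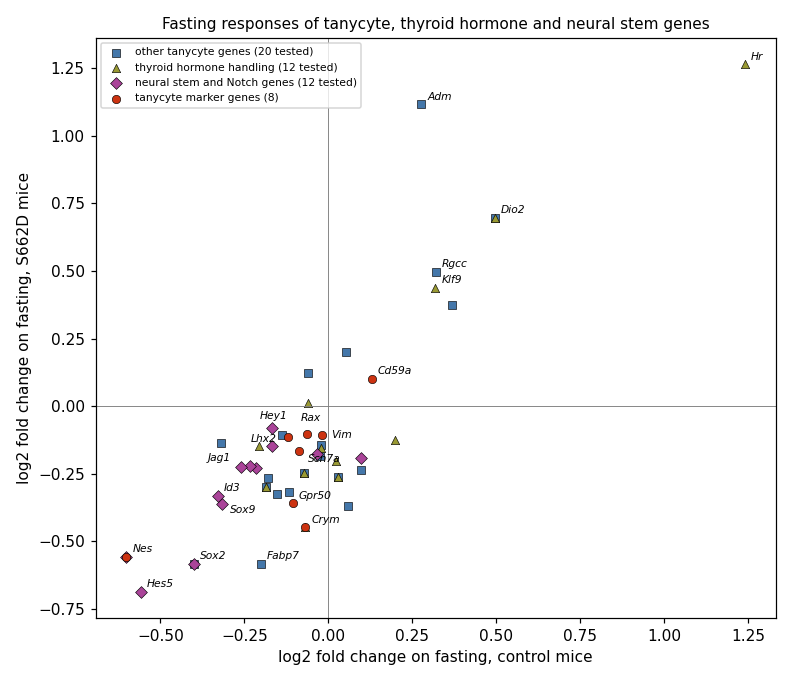
Log2 fold change on fasting in control mice (horizontal axis) against that in S662D mice (vertical axis) for the 8 marker genes (circles), 20 other tanycyte genes (squares), 12 genes of thyroid hormone handling (triangles) and 12 neural stem and Notch genes (diamonds), with names for the marker genes and for genes called in either genotype. Nes lies with Sox2 and Hes5 at the lower left, Dio2 and Hr at the upper right, and the other 7 marker genes nearer the origin.

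Between genotypes, no member passed the test. In the fed state, 0 of 8 members were called between S662D and control mice (edgeR), where 4.69% of all genes were. An unadjusted p below 0.05 was found for 2 members, and DESeq2 called 1. In the fasted state 0 of 8 were called, against 5.57% of all genes, with 3 members at an unadjusted p below 0.05 and 1 called by DESeq2. Of the called genes in the fasted state, 60.1% were higher in S662D mice, and 25.3% with scaling by library size alone. The member that DESeq2 called in both states was Lhx2. The numbers of all genes called depended on the S662D libraries used, with 3106 fed and 3148 fasted in those with the additional digit and 16 and 21 in those without it.

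Lhx2 was 17.6, 17.4, 19.4, 16.5 and 16.1 CPM in fed S662D mice, where fed controls ranged from 10.8 to 17.98 CPM with a median of 14.6. The S662D mice occupied the upper part of the control range, and 1 of the 5 exceeded it. The log2 fold change was 0.25 ± 0.0853 (SE, unadjusted p = 0.00475, adjusted p = 0.0700, edgeR). With DESeq2 it was 0.26 (adjusted p = 0.0436). In the fasted state Lhx2 was 12.8, 18.6, 14.5, 20.3 and 14.4 CPM in S662D mice and 12.008 to 15.3 CPM in controls, with 2 of 5 S662D mice above all controls, and the difference was 0.26 ± 0.0855 (SE, adjusted p = 0.0621).

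These Lhx2 differences depended on which S662D libraries were used. In the fasted state, the 3 libraries with the additional digit gave 0.41 (adjusted p = 0.00186) and the 2 without it 0.02 (adjusted p = 0.997). In the fed state they gave 0.28 (adjusted p = 0.0327) and 0.21 (adjusted p = 1.00). With the digit as a term in the fit the differences were 0.11 and 0.12, with adjusted p of 0.889 and 0.796. Against control replicates 1 to 5 alone the fed difference was 0.33 (adjusted p = 0.0421), and against replicates 6 to 10 alone 0.19 (adjusted p = 0.436). Leaving out fed control replicate 7, fed S662D replicate 5, fasted control replicate 4 or fasted S662D replicates 1 or 5 also brought the adjusted p below 0.05, to between 0.0102 and 0.0492.

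Of the 8 members, 7 had a difference above 0 in fed and 5 in fasted S662D mice, and none passed (edgeR). Scn7a was lower in both states (-0.06 fed and -0.14 fasted), and Crym (-0.23) and Gpr50 (-0.03) were lower in the fasted state. Nes differed by 0.23 fed (interval -0.01 to 0.47, adjusted p = 0.257) and 0.28 fasted (interval 0.02 to 0.53, adjusted p = 0.191). Cd59a differed by 0.24 fed (interval 0.04 to 0.44, adjusted p = 0.146) and 0.21 fasted (interval 0.02 to 0.41, adjusted p = 0.199). In the fed S662D mice, Nes was 14.2 to 17.0 CPM in the 3 libraries with the digit and 10.9 and 12.8 CPM in the 2 without it, and 4 of these 5 values lie within the range of fed controls. The Nes difference in the fed state was 0.37 in the libraries with the digit (adjusted p = 0.0398) and -0.01 in those without it (adjusted p = 1.00). Gpr50 was called in the same way in the fed state with the digit (0.38, adjusted p = 0.0371) and stood at -0.06 without it.

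Among the other tanycyte genes, Fabp7 was the most different between genotypes. It was 18.5 to 26.7 CPM in fed S662D mice and 10.6 to 14.7 CPM in fed controls, with no overlap, which is 0.94 ± 0.0950 (SE) on the log2 scale (adjusted p = 4.31e-09, edgeR). In the fasted state the difference was 0.56 (adjusted p = 0.00103). Its fed difference was called in all 26 alternatives run, with values between 0.77 and 1.06. Sox2 (0.24) and Fzd5 (0.32), a Wnt receptor, were higher and Adm (-0.57) lower in fed S662D mice. Among neural stem and Notch genes, Sox2, Sox9 (0.26) and Notch2 (0.33) were higher in the fed state. In the fasted state 0 were called by edgeR or DESeq2, with 4 at an unadjusted p below 0.05. Sox9 stood at -0.0082 in the S662D libraries without the additional digit. Of 8 endothelial genes, Cldn5 (0.31) and Flt1 (0.28) were higher and Ly6c1 (-0.38) lower fed, and Cldn5 (0.47), Flt1 (0.37), Cdh5 (0.34) and Pecam1 (0.28) were higher fasted. The part of vessel cells in the differences between genotypes was not tested.

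In the libraries labelled Per2 knockout, 0 of 8 members were called against fasted controls, where 0.0277% of all genes (5 of 18063) were. No member had an unadjusted p below 0.05 and DESeq2 called none. Nes was 6.81, 7.90, 9.01, 8.91 and 6.84 CPM, all within the range of the fasted controls, and the difference was 0.01 (interval -0.26 to 0.27, adjusted p = 0.996, edgeR). Lhx2 was 13.3, 13.6, 13.9, 12.3 and 11.995 CPM, with a difference of -0.04 (interval -0.22 to 0.14). No fed mice carried this label, so whether fasting changes the members in them could not be examined.

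Against fasted S662D mice, 0 of 8 members were called in the labelled knockout, while 7.34% of all genes were, with 1 member at an unadjusted p below 0.05 and 1 called by DESeq2. Both were Lhx2, at -0.30 ± 0.1001 (SE, adjusted p = 0.0570, edgeR). Of all called genes 35.6% were higher in the labelled knockout, and 50.1% with scaling by library size alone. Without fasted S662D replicates 1 or 5 the Lhx2 difference was -0.37 and -0.34, with adjusted p of 0.0126 and 0.0335. Against the 2 S662D libraries without the digit it was -0.06 (adjusted p = 0.901), and against the 3 with it -0.45 (adjusted p = 0.00249). In the labelled knockout Fabp7 fell by 1.02 on the log2 scale against S662D mice (adjusted p = 2.56e-07), and the neural stem genes Sox9 (-0.42, adjusted p = 0.00301) and Notch1 (-0.36, adjusted p = 0.0455), a Notch receptor, were also lower.

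Ordered by group mean, Nes ran from 14.0 ± 2.30 CPM in fed S662D mice through 11.9 ± 1.81 in fed controls, 9.58 ± 2.46 in fasted S662D mice and 7.90 ± 1.07 in the labelled knockout to 7.86 ± 1.25 in fasted controls (SD, n = 5, 10, 5, 5 and 10). Lhx2 ran from 17.4 ± 1.27 in fed S662D mice through 16.1 ± 3.15 in fasted S662D mice, 14.6 ± 1.90 in fed controls and 13.4 ± 1.07 in fasted controls to 13.0 ± 0.827 CPM in the labelled knockout. For these and the other 6 members, no group mean differed from the next in order by more than the larger SD of the pair, and the ranges of all neighbours overlapped. Fed S662D mice had the highest mean of Rax, Gpr50, Crym, Vim, Nes and Lhx2, fed controls of Scn7a and fasted S662D mice of Cd59a.

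No pair of members was shown to vary together between mice of 1 group. After removal of each group's mean, the 28 pairwise Pearson correlations of log2 CPM over 35 libraries lay between -0.22 and 0.35, with a median of 0.14, and 20 of them were above 0. None passed the permutation test after adjustment over the 28 pairs, and the lowest adjusted p was 0.697. The highest was that of Crym with Nes (r = 0.35, permutation p = 0.0441, Spearman rho = 0.37, permutation p = 0.0342, adjusted p = 0.697 and 0.481), which was 0.47 without the 2 libraries farthest from the median of Crym. It was 0.59 within control replicates 1 to 5 and 0.16 within control replicates 6 to 10. Rax with Nes gave 0.33, Rax with Lhx2 0.29, and Vim with Nes 0.26.

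**Figure D4:**
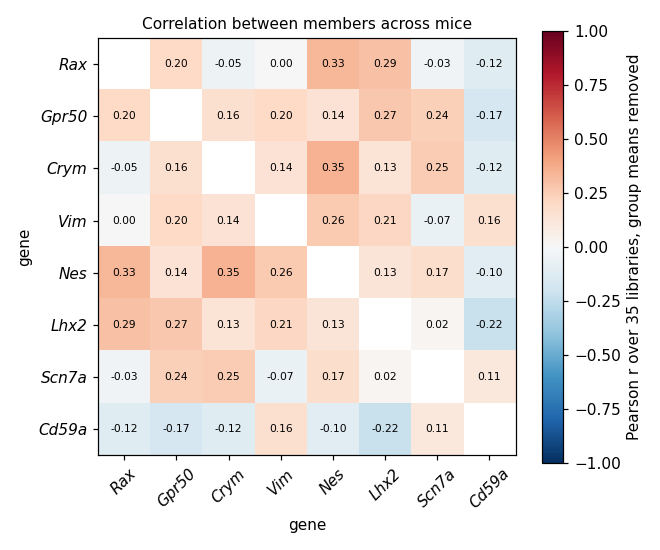
Pearson r between the levels of each pair of marker genes (both axes) over 35 libraries after the group means were removed, printed in each cell and shaded from blue (-1) to red (1). All 28 values lie between -0.22 and 0.35.

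The 15479 tested genes whose mean was 1 CPM or more were searched for those most like each member, by the same group-centred r over 35 libraries. For Crym these were Gng7 (r = 0.81), Kcnj4 (0.78) and Lrrc10b (0.78). For Gpr50 they were Wfs1 (0.74), Nanos1 and Slc22a23. For Scn7a they were Abca5 (0.73), Agps and Fnip1, and for Lhx2 Fbxl16 (0.71), Dennd1a and Gal3st3. For Nes they were Nkd1 (0.67), an inhibitor of Wnt signalling, Hic1 (0.64) and Lmcd1 (0.63). For Vim they were Tcn2 (0.66), Zic2 and Sod3, for Cd59a Hspb8 (0.66), Prrg1 and Emb, and for Rax Xylt2 (0.64), Wnt9b and Ppp2r2d. These values are the highest among many and describe these libraries only. None of the 24 genes is another member or belongs to another list used here, and no member was among the 100 nearest genes of another member.

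Crym was the most variable member, and its level moved with genes of the striatum. In fed controls it ranged from 1.17 to 5.44 CPM (median 2.34) and in fasted controls from 1.24 to 7.10 CPM (median 2.04). The 5 fed S662D mice had 2.33, 5.75, 2.15, 2.76 and 2.29 CPM, where replicate 2 stood apart, and the 5 fasted ones 2.78, 2.82, 1.34, 2.08 and 2.43 CPM. In the labelled knockout it was 2.09, 2.27, 4.45, 3.67 and 2.23 CPM. Each group but the fasted S662D mice held 1 or more libraries with over 4 CPM, and the ranges of all groups overlapped.

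Its level was compared with the summed level of 8 striatal markers such as Adora2a, the adenosine receptor of striatal output neurons. This comparison was added after the values were seen and is 1 of 88 between the 8 members and 11 marker lists. With group means removed, r was 0.63 (permutation p = 0.000110, adjusted p = 0.00968) and Spearman's rho 0.53 (permutation p = 0.00153, adjusted p = 0.0673) over 35 libraries. Without the 2 libraries farthest from the median of Crym, r was 0.58. Within control replicates 1 to 5 and 6 to 10 it was 0.67 and 0.87 (10 libraries each), and in S662D mice 0.51 (10 libraries). Of the 8 markers, Adora2a had the highest r with Crym, 0.71, and Drd2 the lowest, -0.16. The summed markers were 192 to 259 CPM in fed and 194 to 250 CPM in fasted controls, and these ranges overlapped. How much of each library's Crym came from striatal tissue was not tested.

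**Figure D5:**
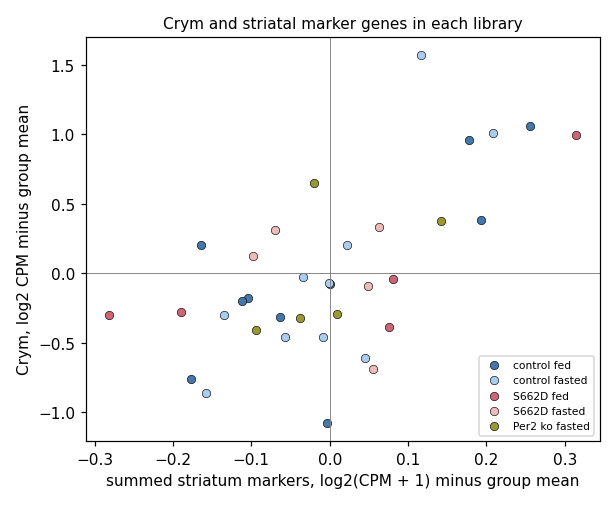
Crym in log2 CPM minus its group mean (vertical axis) against the summed level of 8 striatal marker genes in log2(CPM + 1) minus its group mean (horizontal axis), with 1 point per library coloured by group. Libraries with more striatal signal had more Crym (r = 0.63 over 35 libraries).

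The only other of the 88 comparisons with an adjusted p below 0.05 was that of Vim with cortical and hippocampal markers (r = 0.52, permutation p = 0.000720, adjusted p = 0.0317; rho = 0.58, adjusted p = 0.0642; 35 libraries). It was 0.21 and 0.36 within the 2 control sets and 0.68 in S662D mice. Nes and the summed endothelial markers gave an r of 0.40 (permutation p = 0.0568, adjusted p = 0.257, 35 libraries), and 0.23 without the 2 libraries farthest from the median of Nes. With the summed ependymal markers the r of Nes was 0.05 and that of Rax -0.20.

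Between the 2 control sets, 0 of 8 members were called in fed mice, where 0% of all genes were called (2447 at an unadjusted p below 0.05), and 0 of 8 in fasted mice, where 6.02% were (edgeR in both). No member had an unadjusted p below 0.05 in either state, and DESeq2 was not run here. The largest differences, replicates 6 to 10 minus 1 to 5, were those of Crym (0.66) and Rax (0.46) in fed mice.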

How the data were processed

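The deposited files hold counts per gene, 1 file per sample. Per the file headers, the authors counted fragments with featureCounts 2.0.1 on the GENCODE vM12 annotation of mm10, by gene name, with multi-mapping reads counted and no strand option. STAR 2.7.10b is listed in the submitters' processing notes. Groups come from the titles. Nothing says more about the origin of the replicates than that each is a separate sample, and each is taken here as 1 mouse. The p-values weigh differences against the spread between these samples.

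All 35 libraries were fitted in 1 edgeR 4.0.16 quasi-likelihood model (R 4.3.3, filterByExpr with a minimum count of 10, TMM scaling, robust dispersions), with 7 contrasts, and p-values were adjusted by Benjamini-Hochberg over 18063 genes. A gene is called at an adjusted p below 0.05. CPM are TMM-scaled, SEs derive from the F statistic, and log2 CPM for correlations have a prior count of 2. Permutation tests used 100000 resamples within groups, two-sided. On simulated data with log2 changes of 0.5, the fit recovered 91% of changed genes for fasting in controls, 82% for fasting in S662D mice and 80% for S662D against control, fasted. The changed genes were drawn from those with a mean of 1 CPM or more, which leaves out Rax (mean 0.966 CPM). These rates are over many genes and do not hold for each member, such as the variable Crym. The simulated libraries held no differences between library sets, which the real ones did, so the rates may be too high. Alternatives were DESeq2 1.42.0, scaling by library size, no filter, the compared groups alone, a replicate block, subsets of libraries, library-set terms, and leaving out each replicate. Overlap of exons was computed from the count tables.

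Members and lists were chosen with earlier results of these data known, and the motifs after the promoters were read. Named beyond the members are Per2, the called genes of each list (the 4 with the largest change where more are called, with the rest of that list added after their values were seen) and the 3 genes nearest each member.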

Additional observations from a re-analysis of the deposited data

Results flagged for a closer look

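In 3 of the 40 combinations of 8 members and 5 groups, 1 library stood apart from its group by Dixon's criterion, which chance meets in about 1 of 20 groups. Crym in fed S662D replicate 2 was 5.75 CPM, where the other 4 mice had 2.15 to 2.76 CPM. Nes in fed control replicate 6 was 16.2 CPM, above the 9.39 to 12.6 CPM of the other 9. Without it, the fall of Nes on fasting in controls was -0.54 (adjusted p = 0.000367, edgeR). Scn7a in fed control replicate 5 was 7.37 CPM, below the 11.4 to 15.8 CPM of the other 9.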

How the results depend on the processing

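Members called on fasting in controls (Nes), in the difference of the responses and in the labelled knockout against controls were the same count under every alternative run. On fasting in S662D mice the count of 1 became 0 with only the compared groups, with the replicate block and without the additional digit, and was 0 to 1 over single replicates left out. In S662D against control, fed, the count of 0 became 1 with DESeq2 and with control replicates 1 to 5 alone, 2 with the replicate block (Lhx2 and Nes) and 3 with the additional digit, and was 0 to 1 with single replicates left out. Fasted, it became 1 with DESeq2, with every gene with a count and with the digit, and was 0 to 1 with replicates left out. In the labelled knockout against S662D it became 1 with DESeq2 and with the digit, and was 0 to 1 with replicates left out. Among lists on fasting in controls, other tanycyte genes called higher numbered 1 in control replicates 1 to 5 and 0 in replicates 6 to 10 (2 in all), those called lower 2 in either set (1 in all, 1 to 2 with replicates left out). Thyroid hormone genes called higher numbered 1 in replicates 6 to 10 (3 in all), those called lower 1 in replicates 1 to 5 (0 in all, 0 to 1 with replicates left out), and neural stem genes called lower 3 in replicates 6 to 10 (7 in all). In S662D mice, without the digit, 0 other tanycyte genes were called higher and 1 lower (3 and 2 in all), 0 thyroid genes higher (3 in all) and 1 neural stem gene lower (4 in all, 2 with only the compared groups, 1 to 4 with replicates left out). In fed S662D mice against controls, Sox9 (-0.0082) and Prox1 (-0.0185) reversed without the digit. The cause was not tested, though sets of 2 or 5 libraries hold fewer samples. No pair of members passed in any of the 3 alternatives for correlations. The single replicate whose omission gave 2 other tanycyte genes and 1 thyroid gene lower was fasted control 8. Same-numbered libraries did not all deviate together (r from -0.19 to 0.24, and not every library was closest to its own number), so the numbers are taken not to pair the mice. Between fed control and fed S662D libraries, however, 3 of 5 pairs had r above 0.1 (r from -0.05 to 0.24). There 3 fed controls were closest to their own number, and the mean r was 0.08, against -0.01 for other numbers. Whether the numbers pair these mice was not tested. The block needs the libraries that share numbers, so the same libraries were also fitted with no block, an alternative chosen after seeing the data. There the counts of all genes called were, with and without the block, 615 and 611 for the difference of the responses (0 in all libraries), 2333 and 2120 for S662D against control, fed (847), 1338 and 777 fasted (1007), 227 and 476 for the labelled knockout against S662D (1325), 4 and 2 against control (5), 562 and 775 for fasting in controls and 381 and 279 in S662D mice. Without the block these libraries gave 1 member called for S662D against control, fed (Lhx2), 0 members for fasting in S662D mice and 2 neural stem genes lower there. Under the replicate block Nes on fasting was -0.60 (adjusted p = 0.000308) in controls and -0.56 (adjusted p = 0.140) in S662D mice. Counts of all genes called moved by over 1.5 times in other settings too. With only the compared groups they were 279 for fasting in S662D mice (476 in all libraries), 291 for S662D against control, fasted (1007), 476 for the labelled knockout against S662D (1325) and 3 against control (5). Fasting in controls gave 1315 in replicates 1 to 5 and 304 in replicates 6 to 10 (701), S662D against control 1741 fed and 1680 fasted with the former and 33 and 48 with the latter, the labelled knockout against control 2 and 99, and the difference of the responses 486 with the former. Without the digit, fasting in S662D mice gave 7 and the labelled knockout against S662D 26; with it, the latter gave 2986 and the difference of the responses 9. With the digit as a term, S662D against control gave 23 fed and 20 fasted, and the labelled knockout against S662D 42. With DESeq2 they were 1423 for S662D against control, fed, and 8 for the labelled knockout against control. With single replicates left out, S662D against control, fed, gave 122, 150 and 66 without S662D replicates 2, 3 and 4, 1667 and 1612 without 1 and 5, and 511 and 536 without control replicates 3 and 4. Fasted, it gave 220, 296 and 154 without S662D replicates 2, 3 and 4 and 1802 and 1590 without 1 and 5. The labelled knockout against S662D gave 660, 822 and 521 without S662D replicates 2, 3 and 4 and 636 and 871 without labelled knockout replicates 2 and 4. Fasting in S662D mice gave 311 without fasted replicate 2. Depth limits Rax most, at 8 to 48 counts a library.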

Other observations

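The remaining marker lists bear on what else the dissected tissue held (edgeR throughout). Of 8 microglial genes, Cx3cr1 (-0.41 on the log2 scale, adjusted p = 1.13e-05), a chemokine receptor, and P2ry12 (-0.34), a nucleotide receptor, fell on fasting in controls, and Cx3cr1 fell in S662D mice (-0.43, adjusted p = 0.00132). Of 8 oligodendrocyte genes, Mobp rose (0.15) and Ermn fell (-0.27) in controls, and Mobp (0.40) and Cldn11 (0.24) rose in S662D mice. Mobp was lower in fed S662D mice than in fed controls (-0.21). Of 7 mural and fibroblast-like genes tested, Col1a2 rose in fasted controls (0.33), and Pdgfrb was lower in the labelled knockout than in S662D mice (-0.44). Of 8 thalamic genes, Lef1 fell in fasted controls (-0.36), and Lef1, Tcf7l2 and Ramp3 were lower in the labelled knockout than in S662D mice (-0.40, -0.34 and -0.35). Rgs9 of the striatal list was lower in fasted S662D mice than in fasted controls (-0.26, adjusted p = 0.0455), and Prox1 of the cortical and hippocampal list was higher in fed S662D mice than in fed controls (0.26, adjusted p = 0.0469), a difference that stood at -0.0185 without the additional digit. Of 11 genes of retinoic acid signalling, Dhrs3, a retinal reductase, was higher in fasted S662D mice than in fasted controls (0.28, adjusted p = 0.0184). Aldoc (0.24) and Aldh1l1 (0.19) of the astrocyte list rose in fasted S662D mice, and Slc6a11 was higher in fasted S662D mice than in fasted controls (0.16) and lower in the labelled knockout than in S662D mice (-0.25). Enkur of the ependymal list was higher in the labelled knockout than in S662D mice (0.56), and the endothelial genes Cldn5 (-0.53), Flt1 (-0.44), Cdh5 (-0.40) and Pecam1 (-0.33) were lower. Of 10 choroid plexus and 6 tested pituitary genes, edgeR called 0 in every comparison, with at most 4 and 2 at an unadjusted p below 0.05, while DESeq2 called 1 pituitary gene in S662D against control, fed. Cd59a and the summed choroid plexus genes had a group-centred r of 0.49 over 35 libraries (permutation p = 0.00520, adjusted p = 0.0915), a Spearman rho of 0.50 (permutation p = 0.00381, adjusted p = 0.0931), and an r of 0.46 without the 2 libraries farthest from the median.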
